A study of Mus musculus with 64 samples.

Results

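The feedback genes of FGF and ERK signalling were examined for occupancy by SOX2, by the WNT effector β-catenin and by its DNA-binding partners LEF1, TCF7L1 and TCF7L2. The set held 6 genes (Spry2, Spry4, Dusp6, Etv4, Etv5 and Spred2) of 21938 protein-coding genes on the mm10 build. A peak belonged to a gene when its summit lay in the gene body or within 30 kb on either side. Summits at most 200 bp apart were joined, and a place with a summit of 1 target in at least 2 of 3 libraries of a state was kept as a site. This gave 58 sites at the 6 genes, of 50393 sites over the genome. Unless all deposited peaks are named, values refer to the 20000 peaks of a library with the highest fold, the enrichment of a peak over local background that the authors' peak caller gave.

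Fibroblast growth factors act through receptor tyrosine kinases, RAS, RAF and MEK on the kinase ERK, and ERK switches on genes whose products dampen the same pathway. Sprouty and Spred proteins act between receptor and RAF, DUSP6 removes the activating phosphates from ERK, and ETV4 and ETV5 are ETS transcription factors produced in response to FGF. In embryonic stem cells FGF and ERK drive exit from the naive state, and FGF together with WNT patterns the caudal epiblast.

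Each of the 5 targets was profiled by ChIP-seq in 4 states with 3 biological replicates, which gave 60 peak lists, and the 4 input samples have no list used here. Naive ESC were wild-type mouse embryonic stem cells of the HM1 line (129 strain), returned to naive pluripotency in 2i medium, which holds the GSK3 inhibitor CHIR99021 and 500 nM of the MEK inhibitor PD0325901 and to which no FGF was added. CEpiLC, the caudal epiblast-like cells, were wild-type HM1 cells differentiated for 72 h in 10 ng/ml bFGF and 5 µM LGK974, an inhibitor of WNT secretion, with CHIR99021 present at the end. SOX2-ON and SOX2-OFF cells received that same FGF, LGK974 and CHIR99021 medium, but came from the SOX2-TetON line, labelled Sox2-/-, in which the endogenous gene was ablated and a doxycycline-inducible Sox2 transgene sits at Hprt with the rtTA activator at Rosa26. Doxycycline at 1 µg/ml was kept in the SOX2-ON medium and withdrawn for SOX2-OFF, where the study names low remaining SOX2 protein as probable. By the study's account SOX2 is high in naive ESC and SOX2-ON cells and low in CEpiLC and SOX2-OFF cells. Naive ESC and CEpiLC differ in FGF, MEK inhibition and developmental state as well as in SOX2, and for genes driven by ERK these cannot be told apart.

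The 60 lists held 1628 to 991719 peaks (median 106232), and read depth is unknown. In 10 lists there were fewer than 20000 peaks, so all of them were kept, down to a fold of 1.27, whereas the other 50 lists were limited at a fold between 3.08 and 9.89. The short lists include 2 of 3 CEpiLC and 1 of 3 SOX2-OFF libraries of β-catenin, and the SOX2-OFF library (replicate 2, 3423 peaks) had no peak at Spry4, Dusp6, Etv5 or Spred2. In CEpiLC they also include LEF1 replicates 1 (4443 peaks) and 2 (16518), TCF7L1 replicate 1 (1628) and TCF7L2 replicate 1 (4627). The rest are SOX2-OFF replicate 2 of LEF1 (17493) and TCF7L2 (4134) and SOX2-ON replicate 2 of TCF7L1 (16482). None is of naive ESC or of the target SOX2. For the WNT effectors list length thus goes partly with SOX2 level, and a missing peak enters the tests as 0. The SOX2 lists were all limited, but at a lowest fold of 9.89, 6.34 and 6.02 in naive ESC and 4.33, 5.92 and 5.32 in CEpiLC. A SOX2 peak of the same fold could thus be kept in CEpiLC and not in naive ESC. Peak lists hold no expression, so the states could be checked only by binding at loci known from them: of 5 naive pluripotency and 5 caudal epiblast loci, 2 separated the wild-type states for β-catenin. These were the naive genes Klf2 and Tfcp2l1, with a peak in 3 of 3 naive ESC and 0 of 3 CEpiLC libraries, and also in all 3 of SOX2-ON and of SOX2-OFF. β-catenin was kept in 3 of 3 libraries of both wild-type states at Klf4, Nanog, Cdx2, T and Cdx4, in 3 naive ESC and 2 CEpiLC libraries at Esrrb, and in 2 naive ESC and 3 CEpiLC libraries at Tbx6 and Hoxb9. For SOX2 the caudal gene Tbx6 had a peak in 0 of 3 naive ESC and 3 of 3 CEpiLC libraries. The 5 naive loci had SOX2 in 3 of 3 libraries of both wild-type states.

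Stretches of 201 bases centred on the median summit are printed below for 9 sites, picked by hand among those with recurrent peaks or differences between states. Other sites that qualify are not printed, such as Spry4 +30.6 kb, Etv4 +0.2 kb and Etv5 +1.2 kb, and no Spry4 site is included. They come from the RefSeq sequence of GRCm38.p6, the C57BL/6J reference, on the plus strand, while the cells are of 129 origin. Capitals mark matches on either strand to the SOX letters CATTGT or, as a variant, CTTTGT and to the TCF letters CTTTGAA or, as a variant, CTTTGAT. The second SOX word and both TCF words begin with the same 5 bases.
Spry2 −24.1 kb, chr14:105920917-105921117: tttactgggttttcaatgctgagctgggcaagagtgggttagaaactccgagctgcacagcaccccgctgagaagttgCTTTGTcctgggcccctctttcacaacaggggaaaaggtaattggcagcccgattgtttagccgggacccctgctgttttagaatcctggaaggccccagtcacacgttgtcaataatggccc
Spry2 −26.4 kb, chr14:105922916-105923116: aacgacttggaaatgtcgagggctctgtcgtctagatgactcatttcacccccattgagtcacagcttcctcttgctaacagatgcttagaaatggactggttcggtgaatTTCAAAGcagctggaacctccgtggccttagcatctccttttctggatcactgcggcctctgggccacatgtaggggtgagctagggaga
Dusp6 −1.4 kb, chr10:99261660-99261860: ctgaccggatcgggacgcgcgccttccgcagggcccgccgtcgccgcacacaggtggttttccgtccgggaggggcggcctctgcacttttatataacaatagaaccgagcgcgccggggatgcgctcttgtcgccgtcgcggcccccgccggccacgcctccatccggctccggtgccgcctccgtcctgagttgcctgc
Etv4 −16.1 kb, chr11:101801407-101801607: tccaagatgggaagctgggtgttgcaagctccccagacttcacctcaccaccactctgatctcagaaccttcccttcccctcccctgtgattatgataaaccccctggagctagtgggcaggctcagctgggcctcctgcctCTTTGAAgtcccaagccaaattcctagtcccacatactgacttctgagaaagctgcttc
Etv4 +12.7 kb, chr11:101772634-101772834: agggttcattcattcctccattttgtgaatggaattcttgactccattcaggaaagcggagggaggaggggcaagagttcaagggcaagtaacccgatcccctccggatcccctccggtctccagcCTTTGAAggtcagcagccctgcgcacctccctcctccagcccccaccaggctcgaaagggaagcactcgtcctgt
Etv5 +26.8 kb, chr16:22412901-22413101: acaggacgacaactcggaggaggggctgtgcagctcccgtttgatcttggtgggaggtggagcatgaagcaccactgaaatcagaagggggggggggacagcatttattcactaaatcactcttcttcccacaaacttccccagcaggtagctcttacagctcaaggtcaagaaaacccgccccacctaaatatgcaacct
Etv5 +37 kb, chr16:22402660-22402860: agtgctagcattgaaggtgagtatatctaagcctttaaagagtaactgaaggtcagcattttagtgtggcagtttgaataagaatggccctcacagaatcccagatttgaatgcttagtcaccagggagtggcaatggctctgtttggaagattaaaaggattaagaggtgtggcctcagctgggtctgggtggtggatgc
Spred2 −6.2 kb, chr11:19918043-19918243: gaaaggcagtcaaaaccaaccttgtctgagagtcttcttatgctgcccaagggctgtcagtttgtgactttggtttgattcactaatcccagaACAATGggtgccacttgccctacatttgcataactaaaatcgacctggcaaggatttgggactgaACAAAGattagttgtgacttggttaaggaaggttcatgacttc
Spred2 +62.2 kb, chr11:19986497-19986697: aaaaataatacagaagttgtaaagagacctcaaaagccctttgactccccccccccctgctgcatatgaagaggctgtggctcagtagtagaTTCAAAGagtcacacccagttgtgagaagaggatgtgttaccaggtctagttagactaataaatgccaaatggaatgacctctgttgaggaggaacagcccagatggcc
The SOX match at Spry2 −24.1 kb lay 20 bp from the median summit, and those at Spred2 −6.2 kb lay 5 and 60 bp from it. The TCF match lay 5 bp from the median summit at Spred2 +62.2 kb, 14 bp at Spry2 −26.4 kb, 29 bp at Etv4 +12.7 kb and 45 bp at Etv4 −16.1 kb. The stretches of Dusp6 −1.4 kb, Etv5 +26.8 kb and Etv5 +37 kb hold none of these letters, which says nothing about the factors.

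Around site centres (100 bp either side), SOX letters were found at 23 of 58 sites (39.7%, against 45.5% of all sites) and TCF letters at 15 (25.9%, against 26.3%). The ETS letters CCGGAA were present at 3 sites (5.17%, against 5.24%), and the AP-1 letters TGANTCA also at 3 (5.17%, against 7.03%). The octamer ATGCAAAT was present at 2 sites (3.45%, against 3.44%), the CDX letters TTTATGG or the variant TTTATTG at 5 (8.62%, against 5.75%) and the T letters GGTGTG at 6 (10.3%, against 14.6%). No test was made of these shares.

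In 2 or 3 libraries of some state, SOX2 was found at 41 of the 58 sites (70.7%, against 59.5% of all sites), β-catenin at 34 (58.6%, against 49.8%) and TCF7L1 at 28 (48.3%, against 46.4%). LEF1 and TCF7L2 were each found at 12 sites (20.7%, against 20.7% of all sites for LEF1 and 14.5% for TCF7L2). SOX2 and β-catenin, not always in the same state, shared 24 sites (41.4%, against 27.9%), and 6 sites had all 5 targets (10.3%, against 4.10%). Of the 58 sites 9 lay at a promoter, within 1 kb of a gene start, 19 in introns, 2 in coding exons of Etv5, 18 upstream and 10 downstream. By gene the number of sites ran from 3 at Dusp6 to 19 at Etv5, with 9 at Spry2, 10 at Spry4, 6 at Etv4 and 11 at Spred2, over loci of 64.3 kb (Dusp6) to 160 kb (Spred2). Summed over the lists, 76 (Dusp6) to 237 peaks (Etv5) per locus were among the 20000 strongest, and 523 (Dusp6) to 1341 (Spred2) among all deposited peaks.

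**Figure D1:**
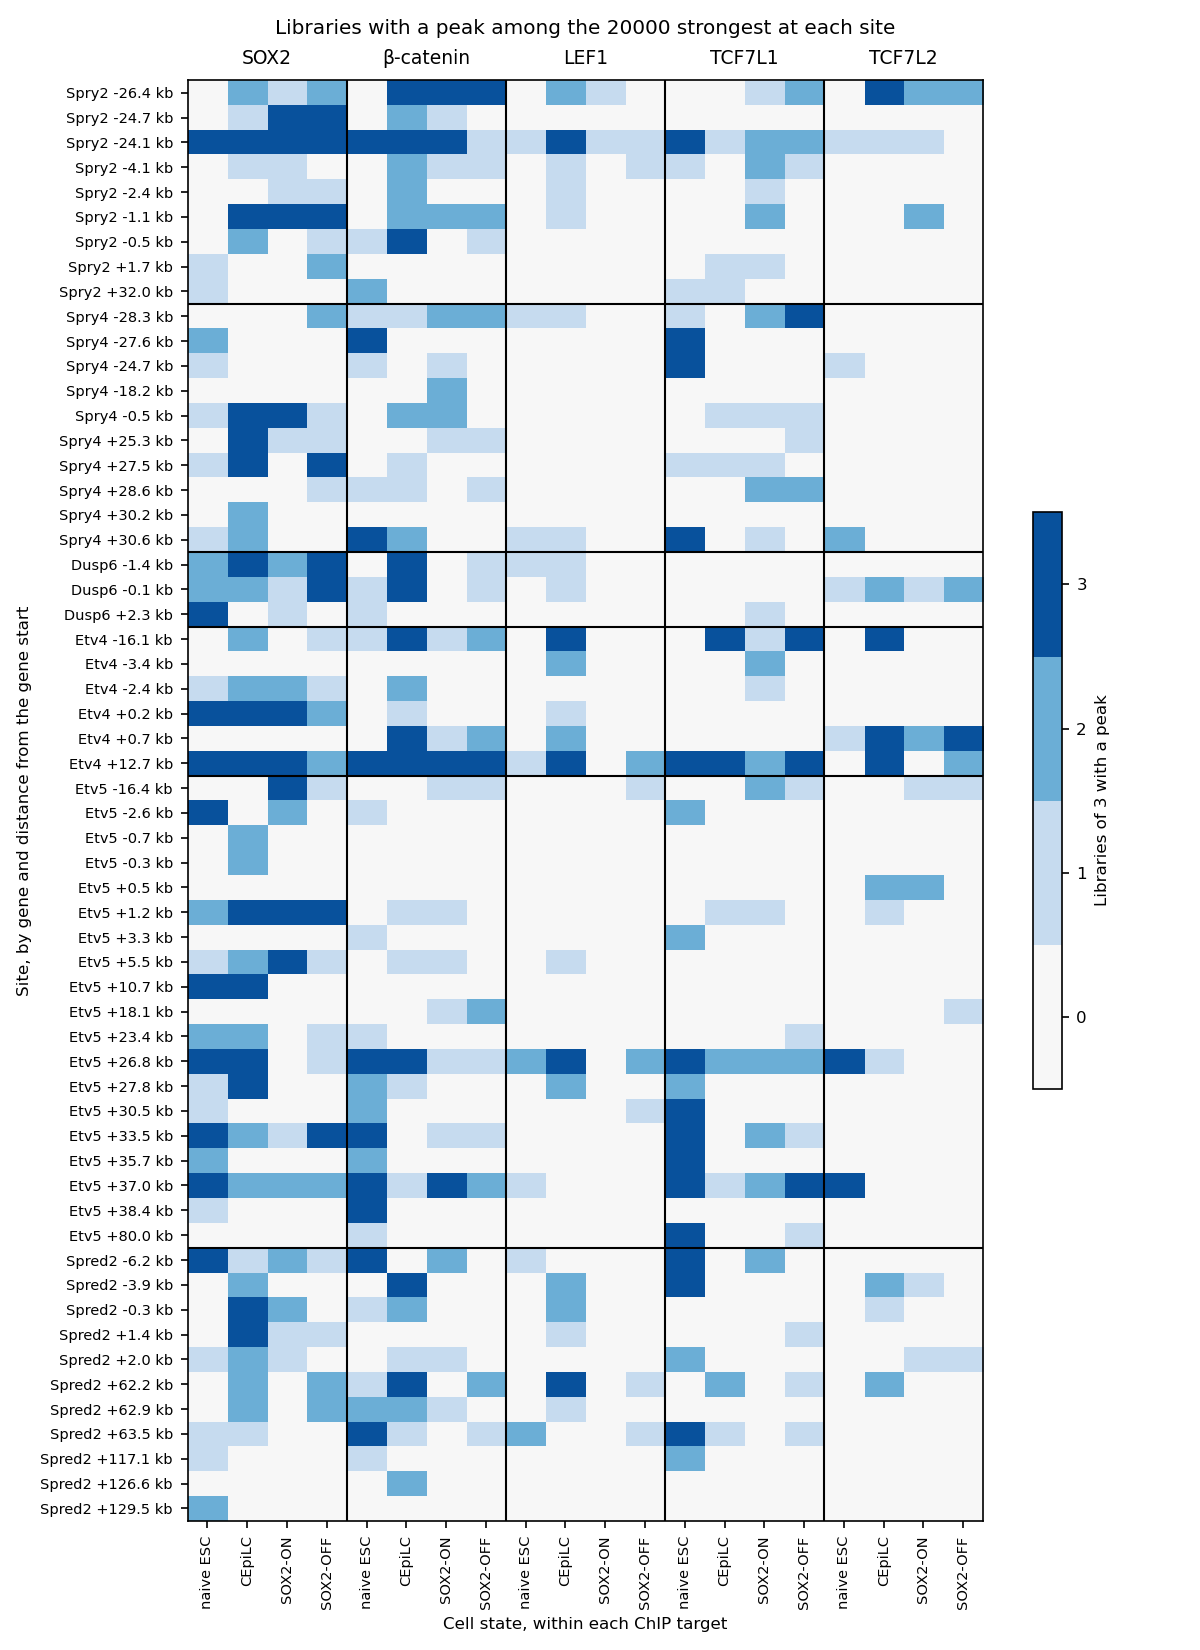
Number of libraries (0 to 3, colour) with a peak among the 20000 strongest at each of the 58 sites (rows, by gene and distance from the gene start in kb), for the 5 targets and 4 states (columns). The SOX2 columns are filled in all states at Spry2 −24.1 kb, and TCF7L1 at Etv5 30.5, 33.5, 35.7 and 37 kb is filled in 3 of 3 naive ESC libraries.

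**Figure D2:**
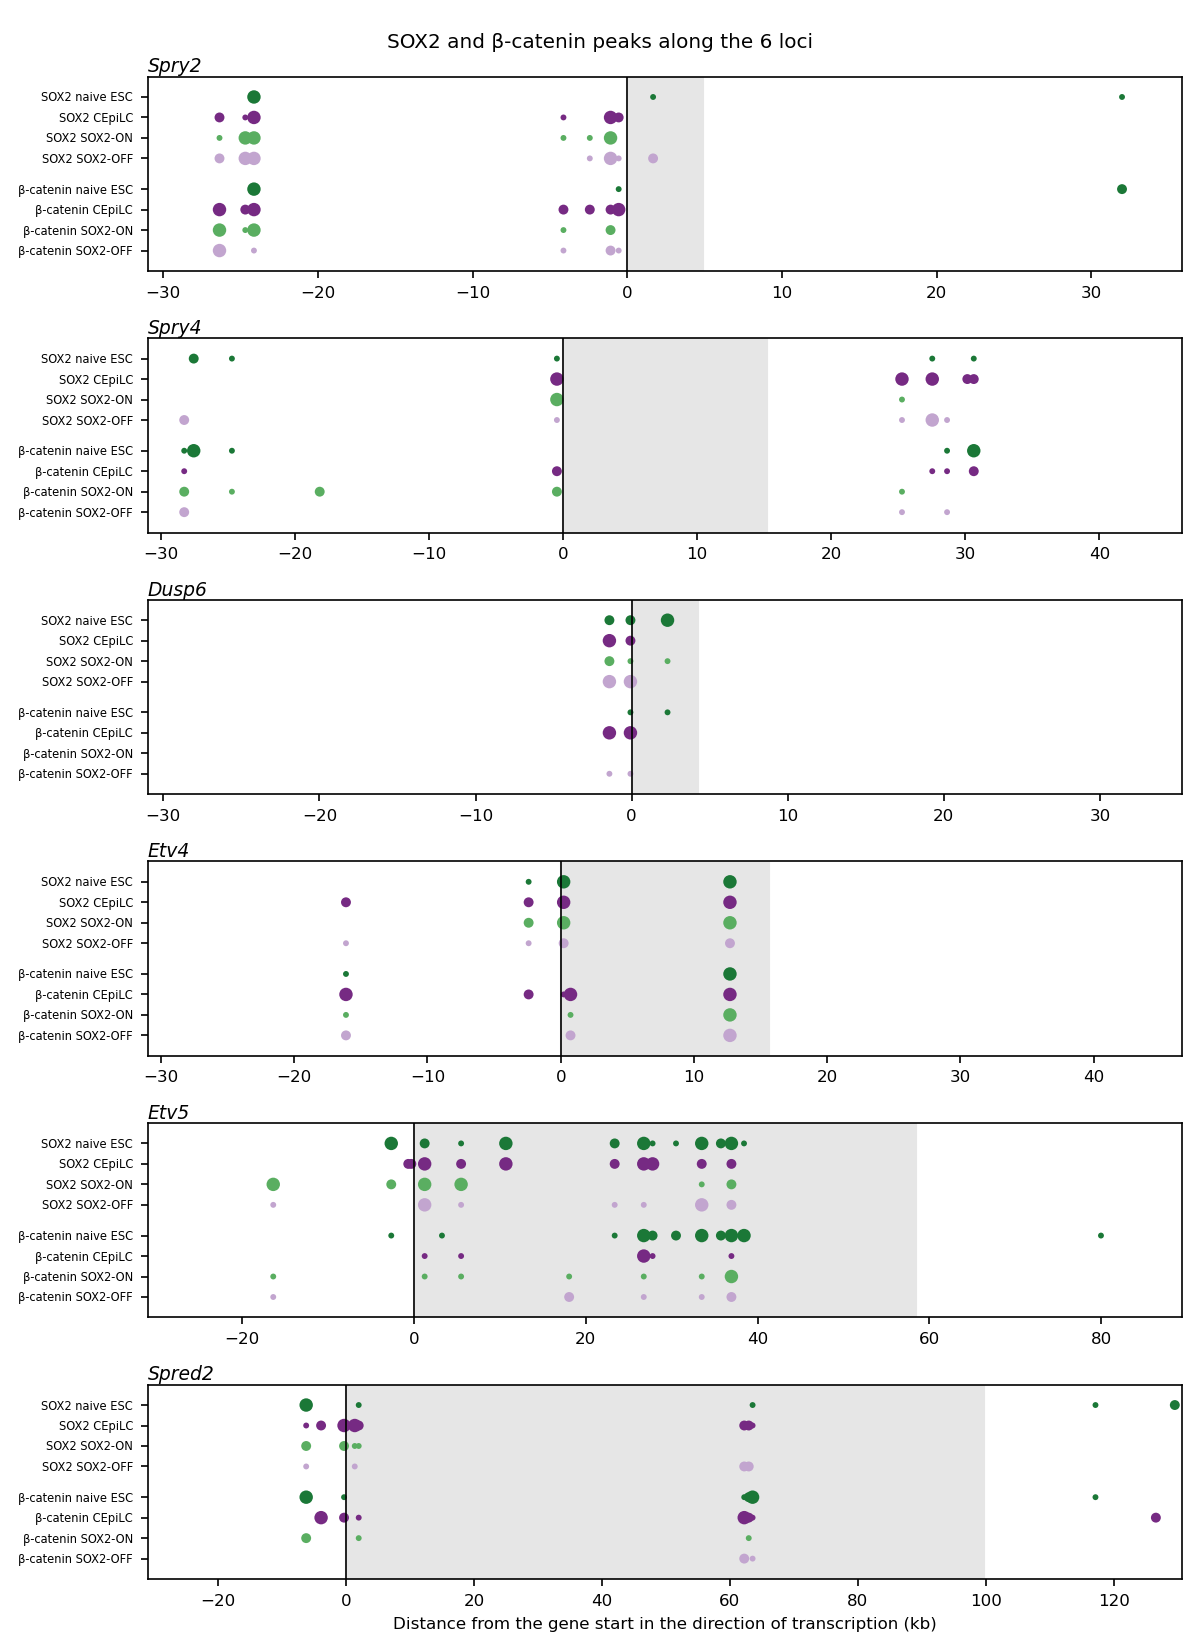
Sites along the 6 loci by distance from the gene start in kb (positive into the gene), 1 panel per gene. Grey marks the gene body, the rows are SOX2 and β-catenin in each of the 4 states, and dot size gives the number of libraries (1 to 3) with a kept peak. Spry2 sites lie mainly upstream, Dusp6 has 3 sites near its start, and the β-catenin sites of naive ESC at Etv5 gather inside the gene.

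Among the Sprouty genes, Spry2 carried the highest SOX2 folds of the 6 loci. Spry2 (ENSMUSG00000022114.5, chr14:105891947-105896819, minus strand) encodes an inhibitor of receptor tyrosine kinase signalling to RAS. Its main site lay 24.1 kb upstream in intergenic DNA and had a peak in 39 of 60 lists. The SOX2 fold there was 54.5, 29.7 and 51.6 in naive ESC, 54.8, 64.4 and 99.5 in CEpiLC, 39.7, 24.9 and 42.8 for SOX2-ON and 20.4, 38.3 and 33.8 for SOX2-OFF. In all 12 SOX2 lists this peak ranked between 10 and 565 by fold. The CEpiLC libraries lay above the 3 naive ESC ones, and SOX2-ON and SOX2-OFF overlapped. The mean log2(fold + 1) was 5.48 ± 0.47 in naive ESC, 6.16 ± 0.44 in CEpiLC, 5.17 ± 0.41 for SOX2-ON and 4.94 ± 0.47 for SOX2-OFF (SD, n = 3 each). High minus low SOX2 gave −0.23 (exact permutation test, p = 0.485, Benjamini-Hochberg adjusted p = 0.574), a difference smaller than the spread within each state.

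The 12 SOX2 summits at Spry2 −24.1 kb fell within 56 bp of each other, and the median β-catenin summit lay 4 bp from the median SOX2 summit. β-catenin had a fold of 29.0, 7.15 and 12.2 in naive ESC, 17.1, 14.5 and 16.8 in CEpiLC and 15.4, 12.5 and 22.9 in SOX2-ON. In SOX2-OFF it was kept in 1 library, at 11.7, and all deposited peaks added a fold of 4.90 in replicate 1. TCF7L1 there was at 16.5, 9.07 and 28 in naive ESC, and LEF1 at 7.71, 10.5 and 9.87 in CEpiLC, so WNT effectors were found at the site in both wild-type states. At 24.7 kb upstream, a site named here after its values were seen, SOX2 was kept in all SOX2-ON (11.9, 6.71 and 9.26) and SOX2-OFF libraries (4.89, 11.3 and 6.98), in 1 CEpiLC library (8) and in no naive ESC library.

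Farther out, at 26.4 kb upstream, β-catenin was found in CEpiLC and the TetON cells but not in naive ESC. None of the naive ESC libraries kept a peak, while the fold was 18.8, 23.0 and 16.4 in CEpiLC, 15.9, 6.27 and 16.6 for SOX2-ON and 8.63, 5.49 and 14.5 for SOX2-OFF. TCF7L2 had the same absence in naive ESC, with 6.56, 17.3 and 10.2 in CEpiLC. All deposited peaks gave 1 naive ESC library with β-catenin (fold 5.40) and none with TCF7L2. Closer to the gene, 1.1 kb upstream, SOX2 was likewise not kept in naive ESC but reached 10.3, 7.95 and 11.9 in CEpiLC, 10.2, 8.90 and 16.8 for SOX2-ON and 7.97, 13.1 and 11.5 for SOX2-OFF. At these 3 pairs of site and target the TetON states, which share the CEpiLC medium, overlapped each other.

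Spry4 (ENSMUSG00000024427.7, chr18:38586247-38601415, minus strand) encodes a further Sprouty inhibitor, and β-catenin and TCF7L1 were kept in all naive ESC libraries at some of its distal sites. Downstream, 30.6 kb from the gene start, TCF7L1 had a fold of 19.9, 14.7 and 37.1 in naive ESC, was kept in no CEpiLC or SOX2-OFF library and reached 5.68 in 1 SOX2-ON library. β-catenin at that site was at 21.7, 16.5 and 16.0 in naive ESC and at 8.70 and 5.74 in 2 CEpiLC libraries. Upstream, at 27.6 kb in an exon of the lincRNA AC133601.1, β-catenin was at 15.7, 19.5 and 14.9 and TCF7L1 at 17.6, 11.6 and 26.8 in naive ESC, and in none of the 9 other libraries of each was a peak kept. At 24.7 kb upstream TCF7L1 was also kept in naive ESC only, at 8.81, 5.80 and 16.1. The β-catenin peak at 28.3 kb upstream instead recurred in the TetON cells, with 9.23 and 14.4 in 2 SOX2-ON and 10.9 and 11.3 in 2 SOX2-OFF libraries. It was also kept in 1 naive ESC (6.48) and 1 CEpiLC library (4.98).

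SOX2 at Spry4 was weaker than at Spry2, with locus maxima of 5.92 to 16.0 in the 12 libraries. At the promoter site, 0.5 kb upstream, SOX2 was kept in 3 of 3 libraries of CEpiLC (11.5, 7.53 and 12.8) and SOX2-ON (8.84, 8.72 and 13.6) and in 1 of 3 of naive ESC (16.0) and SOX2-OFF (5.10). The site at 27.5 kb from the gene start, downstream, was the only one, among the 34 tested for SOX2 in the TetON cells, with a peak in all SOX2-OFF and no SOX2-ON library. Its fold was 13.3, 9.69 and 12.1 in CEpiLC and 5.92, 10.6 and 13.6 in SOX2-OFF, against 6.68 in 1 naive ESC library and none in SOX2-ON. All deposited peaks gave further folds of 6.26 and 6.17 in naive ESC and 4.69 and 5.54 in SOX2-ON, all under those of CEpiLC. A neighbouring site at 25.3 kb kept SOX2 in CEpiLC (4.42, 6.72 and 6.35), in 1 SOX2-ON (9.30) and in 1 SOX2-OFF library (8.80). None of the naive ESC libraries kept it, but all deposited peaks gave 7.21 in 1 of them, above CEpiLC. At 27.5 kb, high minus low SOX2 was −3.04 on the log2(fold + 1) scale, with an exact permutation p = 0.005, the smallest the design allows, and a Benjamini-Hochberg adjusted p = 0.104.

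Over the Spry4 locus the strongest β-catenin peak had a fold of 21.7, 19.5 and 16.0 in naive ESC and 13.8, 9.23 and 14.4 in SOX2-ON, against 8.70, 5.74 and no peak in CEpiLC and 10.9, no peak and 11.3 in SOX2-OFF. The wild-type states did not overlap and the TetON states did. Mean log2(fold + 1) was 4.02 at high and 2.20 at low SOX2, a difference of 1.82 (exact permutation test, p = 0.015, Benjamini-Hochberg adjusted p = 0.128). This difference pools different sites. The naive ESC maxima lay at +30.6 and −27.6 kb, where SOX2-ON kept no β-catenin peak. Those of SOX2-ON lay at −0.5 and −28.3 kb, those of CEpiLC at +30.6 kb and those of SOX2-OFF at −28.3 kb. Without replicate 2, whose SOX2-OFF list is the one of 3423 peaks, the difference was 1.49, and with a flank of 10 kb it was 0.42 (exact p = 0.58).

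Spred2 (ENSMUSG00000045671.17, chr11:19924375-20024026, plus strand), which encodes a Sprouty-related inhibitor of RAS and RAF activation, had naive ESC sites and CEpiLC sites side by side. At 6.2 kb upstream SOX2 had a fold of 25.9, 19.2 and 19.6 in naive ESC, 4.70 in 1 CEpiLC library, 8.82 and 9.81 in 2 SOX2-ON libraries and 9.67 in 1 SOX2-OFF library. β-catenin was kept at 8.55, 7.11 and 8.57 in naive ESC and at 5.02 and 9.22 in 2 SOX2-ON libraries, and in no CEpiLC or SOX2-OFF library. TCF7L1 followed the same order, at 12.9, 9.10 and 26.7 in naive ESC, 6.17 and 14.3 in 2 SOX2-ON libraries and none at low SOX2. From low to high SOX2, β-catenin differed by 2.58 (exact permutation p = 0.02, Benjamini-Hochberg adjusted p = 0.160) and TCF7L1 by 3.12 (exact p = 0.02, adjusted p = 0.191), so neither passed the threshold.

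At 1 site within the gene the order was the reverse. At 62.2 kb in an intron β-catenin had a fold of 26.6, 25.2 and 21.6 in CEpiLC, 14.2 and 16.4 in 2 SOX2-OFF libraries and 8.73 in 1 naive ESC library, with none in SOX2-ON. LEF1 was at 13.2, 17.6 and 18.6 in CEpiLC and 17.1 in 1 SOX2-OFF library, and was kept in no naive ESC or SOX2-ON library. At 63.5 kb, a neighbouring intronic site named after its values were seen, β-catenin was instead at 9.24, 7.88 and 8.53 in naive ESC against 4.62 in 1 CEpiLC library, and TCF7L1 at 10.1, 5.71 and 22.3 against 6.12 in 1 CEpiLC library. At 62.2 kb the β-catenin difference was −3.13 (exact permutation p = 0.02, Benjamini-Hochberg adjusted p = 0.160). Over the whole locus the strongest β-catenin peak gave −0.41 and the strongest SOX2 peak 0.46 (exact permutation p = 0.665 and p = 0.05, Benjamini-Hochberg adjusted p = 0.821 and 0.217).

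Other called sites at Spred2 lay near the gene start. SOX2 was kept in CEpiLC but in no naive ESC library at 0.3 kb upstream (6.59, 6.03 and 11.8) and at 1.4 kb inside the gene (8.02, 7.22 and 8). All deposited peaks gave SOX2 folds of 6.95 and 4.97 in 2 naive ESC libraries at 0.3 kb upstream, which overlap CEpiLC, and 3.15 in 1 naive ESC library at 1.4 kb. At 3.9 kb upstream 2 targets were called in opposite directions: TCF7L1 was kept in naive ESC only (10.9, 6.54 and 21) and β-catenin in CEpiLC only (5.54, 4.92 and 6.46). All deposited peaks, however, placed β-catenin there in 3 of 3 naive ESC libraries too, at 3.96, 5.5 and 3.57, which overlaps CEpiLC. The median summits of the 2 targets lay 230 and 27 bp from the centre of this site, so they mark different places in it.

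Dusp6 (ENSMUSG00000019960.8, chr10:99263231-99267489, plus strand), which encodes the ERK phosphatase, had its 3 sites within 2.3 kb of its start. At 1.4 kb upstream SOX2 had a fold of 12.9, 17.9 and 19.9 in CEpiLC and 6.40, 11 and 12.9 in SOX2-OFF, against 11.5 and 6.62 in 2 naive ESC libraries and 6.64 and 10.3 in 2 SOX2-ON libraries. CEpiLC lay above naive ESC in every library, and the TetON states overlapped. High minus low SOX2 was −1.61 (exact permutation p = 0.025, Benjamini-Hochberg adjusted p = 0.225). In the other direction, 2.3 kb inside the gene in an intron, SOX2 was kept at 12.3, 14.3 and 8.56 in naive ESC and in no CEpiLC library, with 11.8 in 1 SOX2-ON library and none in SOX2-OFF.

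At the Dusp6 promoter, 0.1 kb upstream, β-catenin was at 12.4, 7.73 and 6.41 in CEpiLC, 5.92 in 1 naive ESC library and 7.03 in 1 SOX2-OFF library. The CEpiLC-only call of β-catenin at −1.4 kb depended on list length: its folds of 4.60, 3.37 and 4.17 there overlapped the 3.78, 4.45 and 3.64 that all deposited peaks gave in naive ESC. LEF1 and TCF7L1 reached no Dusp6 site in 2 of 3 libraries of any state. Over the locus the strongest LEF1 peak was at 5.86, 6.08 and 12.3 in naive ESC and 4.01 and 5.03 in 2 CEpiLC libraries. It was at 7.54 in 1 SOX2-ON library and not kept in SOX2-OFF. High minus low SOX2 for LEF1 was 1.25 (exact permutation p = 0.05, Benjamini-Hochberg adjusted p = 0.467). The strongest SOX2 peak of the locus ranged from 6.40 to 19.9 over the 12 libraries, and high minus low SOX2 was −0.33 (exact permutation p = 0.225, Benjamini-Hochberg adjusted p = 0.504).

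Etv4 (ENSMUSG00000017724.14, chr11:101769742-101785371, minus strand) encodes an ETS factor of the PEA3 group. Its intronic site at 12.7 kb had peaks in 45 of 60 lists and was bound by β-catenin in all 12 libraries. The β-catenin fold there was 15.8, 8.59 and 8.69 in naive ESC, 15.6, 16.9 and 18.4 in CEpiLC, 11.5, 11.1 and 13 for SOX2-ON and 14.4, 9.93 and 24.9 for SOX2-OFF. TCF7L1 had a fold of 18.7, 8.25 and 23.0 in naive ESC, 6.22, 23.9 and 10.1 in CEpiLC, 17.8 and 27.8 in 2 SOX2-ON libraries and 19.5, 36.4 and 36.1 in SOX2-OFF. TCF7L2 was kept in no naive ESC or SOX2-ON library, and at 6.60, 13.9 and 12.8 in CEpiLC and 3.92 and 6.90 in 2 SOX2-OFF libraries. For TCF7L1 the states overlapped, and for β-catenin all but SOX2-ON and CEpiLC did, whereas TCF7L2 was kept at low SOX2 only (difference −2.65, exact permutation p = 0.02, Benjamini-Hochberg adjusted p = 0.390).

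Upstream of Etv4, at 16.1 kb, β-catenin and its 3 partners were kept in every CEpiLC library. β-catenin was at 30.0, 33.2 and 19.2 in CEpiLC, 14.2 and 20.3 in 2 SOX2-OFF libraries, 6.12 in 1 naive ESC library and 7.74 in 1 SOX2-ON library. LEF1 was kept in CEpiLC only, at 13.3, 12.7 and 18.2, and so was TCF7L2, at 8.85, 8.34 and 7.87. TCF7L1 was at 7.28, 18.9 and 8.27 in CEpiLC, 7.99, 8.16 and 14.9 in SOX2-OFF and 9.35 in 1 SOX2-ON library, and not kept in naive ESC, where all deposited peaks gave folds of 7.53 and 6.98 in 2 libraries. From low to high SOX2, β-catenin differed by −2.79 (exact permutation p = 0.035, Benjamini-Hochberg adjusted p = 0.240) and TCF7L1 by −2.93 (exact p = 0.015, adjusted p = 0.191).

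Near the Etv4 start SOX2 and TCF7L2 were the leading targets. At 0.2 kb inside the gene SOX2 was at 20.1, 16.0 and 23.2 in CEpiLC and 13.7, 14.4 and 13.9 in naive ESC, with 6.55, 11.7 and 15.8 in SOX2-ON and 6.08 and 9.77 in 2 SOX2-OFF libraries. The CEpiLC libraries lay above those of naive ESC, and the TetON states overlapped. At 0.7 kb TCF7L2 was at 13.1, 15.9 and 18.6 in CEpiLC against 5.95 in 1 naive ESC library, and β-catenin at 8.40, 7.07 and 5.96 in CEpiLC against none kept in naive ESC. TCF7L2 was also at 6.81 and 21.2 in 2 SOX2-ON libraries and at 7.08, 7.73 and 7.83 in SOX2-OFF. β-catenin was at 5.88 in 1 SOX2-ON library and at 11.2 and 6.32 in 2 SOX2-OFF libraries. All deposited peaks gave TCF7L2 in 3 of 3 naive ESC libraries (4.36, 5.95 and 6.73) and β-catenin in 1 (3.96). Over the locus, the strongest β-catenin peak averaged 3.61 at high and 4.41 at low SOX2 on the log2(fold + 1) scale, a difference of −0.80 (exact permutation p = 0.035, Benjamini-Hochberg adjusted p = 0.181). The wild-type states did not overlap (8.59 to 15.8 against 19.2 to 33.2), and the TetON states did.

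Etv5 (ENSMUSG00000013089.15, chr16:22381309-22439719, minus strand), the paralogue of Etv4, had the highest β-catenin and TCF7L1 folds of the 6 genes, in naive ESC. At 37 kb in an intron β-catenin had a fold of 47.5, 24.1 and 43.8 in naive ESC, 4.23 in 1 CEpiLC library, 13.7, 7.35 and 12.5 in SOX2-ON and 12.2 and 8.36 in 2 SOX2-OFF libraries. TCF7L1 was at 50.4, 42.9 and 91.1 in naive ESC, 8.98 in 1 CEpiLC library, 12.1 and 23.8 in 2 SOX2-ON libraries and 8.19, 5.57 and 7.27 in SOX2-OFF. TCF7L2 was kept in naive ESC only, at 5.94, 10.7 and 11. All naive ESC libraries lay above all others for β-catenin and TCF7L1. For β-catenin the gap from low to high SOX2 was 2.85 (exact permutation p = 0.025, Benjamini-Hochberg adjusted p = 0.194).

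A site at 26.8 kb in a coding exon of Etv5, singled out after its values were seen, was as strong. TCF7L1 there was at 73.3, 48.0 and 101 in naive ESC, against 6.37 and 6.12 in 2 CEpiLC libraries, 5.12 and 14.8 in 2 SOX2-ON and 9 and 8.07 in 2 SOX2-OFF libraries. β-catenin was at 52.4, 28.5 and 41.1 in naive ESC and at 13.3, 17.3 and 6.59 in CEpiLC, and SOX2 at 18.8, 22.5 and 17.1 in naive ESC and 5.52, 8.08 and 6.15 in CEpiLC. For all 3 targets the wild-type states did not overlap. In the TetON cells β-catenin was at 15.9 in 1 SOX2-ON and 19.6 in 1 SOX2-OFF library. SOX2 was kept in no SOX2-ON library and at 8.35 in 1 SOX2-OFF library.

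The other naive ESC sites of Etv5 were weaker, and most lay in the same stretch of introns. β-catenin at 33.5 kb was at 9.90, 10.2 and 17.2 and TCF7L1 at 12.7, 8.80 and 25.2 in naive ESC, both kept in no CEpiLC library. TCF7L1 was also kept in naive ESC and in no CEpiLC library at 30.5, 35.7 and 80.0 kb, with folds of 5.98 to 14.7, and β-catenin at 38.4 kb, with 6.55 to 8.11. The site at 80.0 kb lies downstream of the gene. SOX2 at 2.6 kb upstream was at 10.7, 9.87 and 8.09 in naive ESC and 7.35 and 10.1 in 2 SOX2-ON libraries, and was kept in no library at low SOX2 (difference 2.79, exact permutation p = 0.02, Benjamini-Hochberg adjusted p = 0.184). At 10.7 kb, a site named after its values were seen, SOX2 was kept in all naive ESC (10.0, 8.91 and 11.1) and CEpiLC libraries (8.49, 7.46 and 9.71) and in no TetON library. The intronic site at 1.2 kb, by contrast, had SOX2 in 11 of 12 libraries at folds of 6.31 to 17.9 and overlapping states.

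The strongest TCF7L1 peak of the Etv5 locus averaged 6.17 ± 0.53 on the log2(fold + 1) scale in naive ESC, 2.05 ± 1.79 in CEpiLC, 2.78 ± 2.45 for SOX2-ON and 3.32 ± 0.12 for SOX2-OFF (SD, n = 3 each). Naive ESC minus CEpiLC was 4.12 (exact permutation p = 0.1, the smallest that 3 against 3 libraries can give) and SOX2-ON minus SOX2-OFF −0.54 (exact permutation p = 1). The difference between these contrasts was 4.65 (exact permutation p = 0.01, Benjamini-Hochberg adjusted p = 0.178). For this test libraries were permuted between naive ESC and SOX2-ON and between CEpiLC and SOX2-OFF, states that also differ in cell line. Among the member loci and targets tested in this way none passed, and this adjusted p was the lowest. The CEpiLC mean includes a 0 from replicate 1, a list of 1628 peaks, and the SOX2-ON mean also includes a 0.

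**Figure D3:**
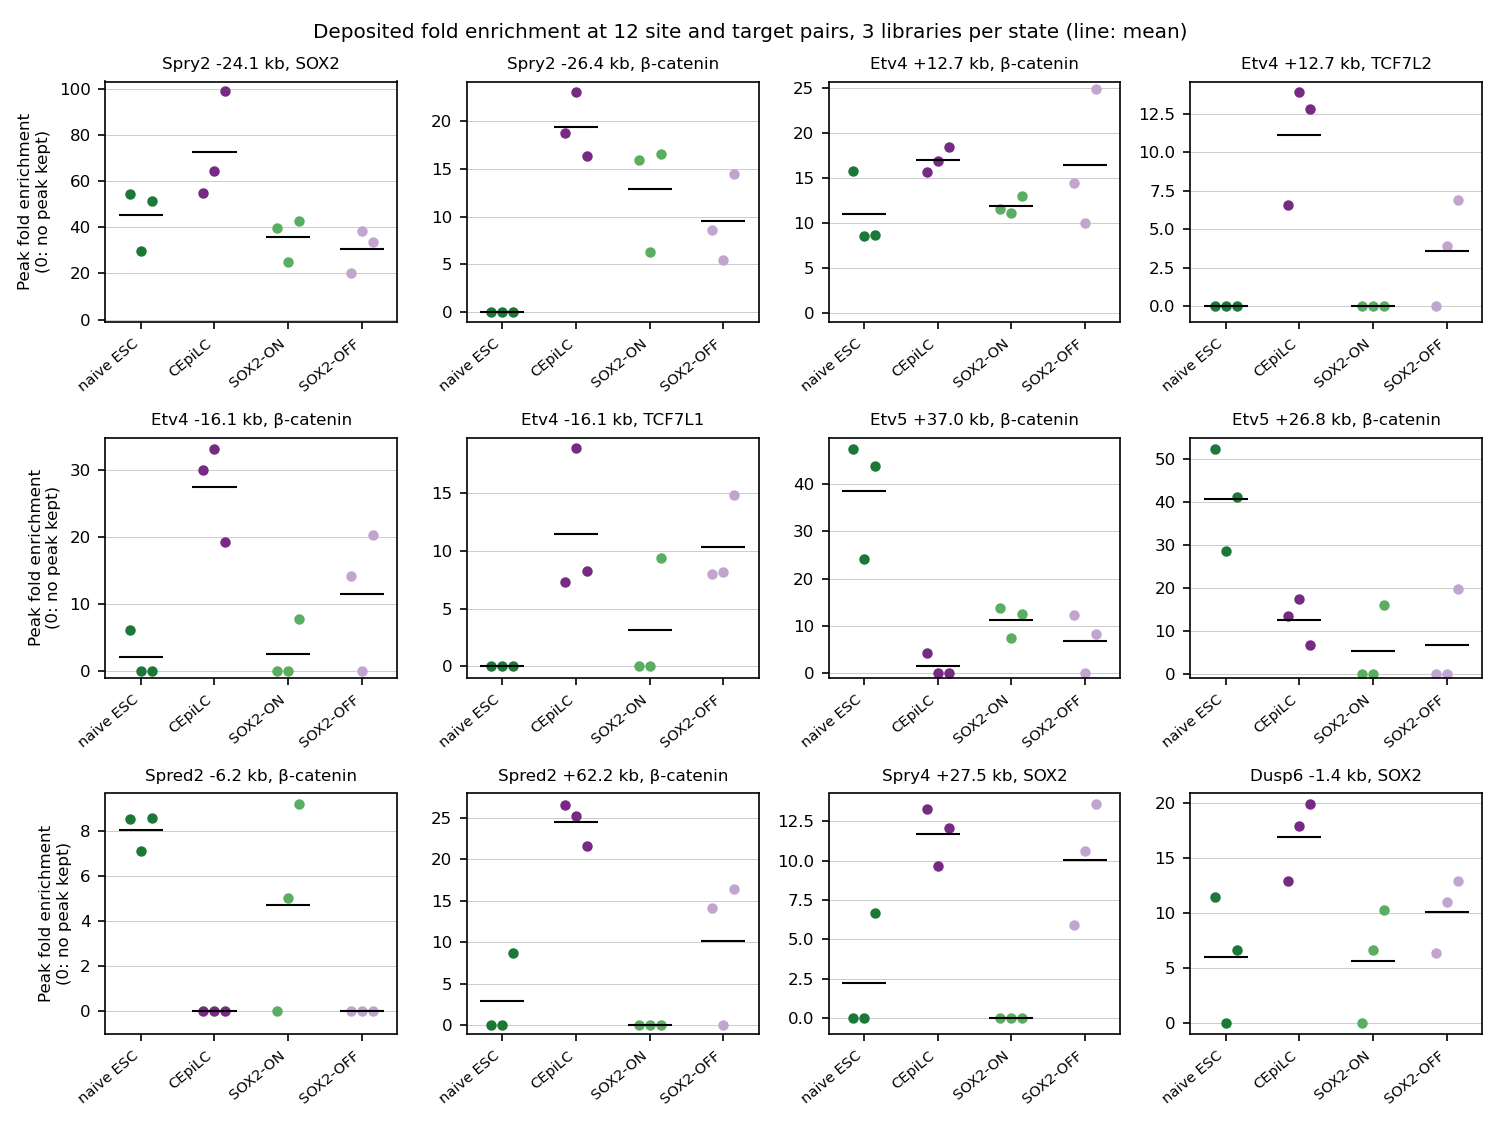
Fold over background (y axis, 0 meaning no kept peak) in each library (points) of the 4 states (x axis) at 12 pairs of site and target; lines mark the mean of 3 libraries. SOX2 at Spry2 −24.1 kb is high in all states, β-catenin at Etv5 is highest in naive ESC, and β-catenin at Etv4 −16.1 kb and Spred2 +62.2 kb is highest in CEpiLC.

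Sites found in all 3 libraries of one state and in 0 of 3 of the other were then counted and read against the share of all sites called by the same rule. For SOX2, 2 of 46 sites tested were bound in naive ESC only (7.53% of all sites were) and 4 in CEpiLC only (7.94%). For β-catenin, 4 of 45 sites were bound in naive ESC only (13.1%) and 4 in CEpiLC only (9.45%). For TCF7L1 the sites went mostly one way, 9 of 28 in naive ESC only and 1 in CEpiLC only, as did the genome's (34.1% and 0.385%). A CEpiLC-only call of TCF7L1 needs a peak in CEpiLC replicate 1, whose whole list holds 1628 peaks. Each naive ESC list of TCF7L1 keeps 20000, so list length limits CEpiLC-only calls at the members and over the genome. For LEF1 the counts were 0 and 2 of 25 sites (0.0781% and 10.0%), and for TCF7L2 1 and 3 of 15 (2.28% and 4.57%). These counts are small, and their distance from the share of all sites was not tested.

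In all, 16 pairs of site and target were bound in naive ESC only and 14 in CEpiLC only, of 159 tested. With all deposited peaks at the same sites the counts were 22 and 5, and with the 5000 strongest 7 and 13, so the balance between states depended on list length. Absence from the complete lists of the other state held for 13 of the 16 naive ESC and 4 of the 14 CEpiLC pairs. Complete lists differ in length between the states, so these shares cannot be compared. For β-catenin they hold 10930 to 20453 peaks in CEpiLC and 49737 to 222062 in naive ESC. The longest SOX2 list holds 104085 peaks in CEpiLC and 907862 in naive ESC, and the longest TCF7L2 list 466286 and 452935. The 16 were spread over Spry4 (4), Dusp6 (1), Etv5 (8) and Spred2 (3), and the 14 over Spry2 (3), Spry4 (1), Dusp6 (1), Etv4 (5) and Spred2 (4). Of the 8 Etv5 pairs 4 were of TCF7L1, the target most often called in naive ESC only over the genome. These splits by gene were not set against all sites and were not tested. The 8 Etv5 pairs had no peak in the complete CEpiLC lists, and of the 5 Etv4 pairs 2 had none in the complete naive ESC lists. The unequal list lengths bear on these counts too.

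SOX2-ON and SOX2-OFF differed at 1 of 111 pairs of site and target. SOX2 was bound in SOX2-ON only at 0 of 34 sites (15.9% of all sites) and in SOX2-OFF only at 1 (2.42%), the Spry4 site at 27.5 kb. β-catenin was called at 0 and 0 of 29 sites (7.24% and 0.934% of all sites), LEF1 at 0 and 0 of 9 (4.59% and 1.43%), TCF7L1 at 0 and 0 of 28 (1.97% and 0.909%) and TCF7L2 at 0 and 0 of 11 (1.66% and 1.37%). The SOX2-ON count of SOX2 lay under the share of all sites and that distance was not tested.

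**Figure D4:**
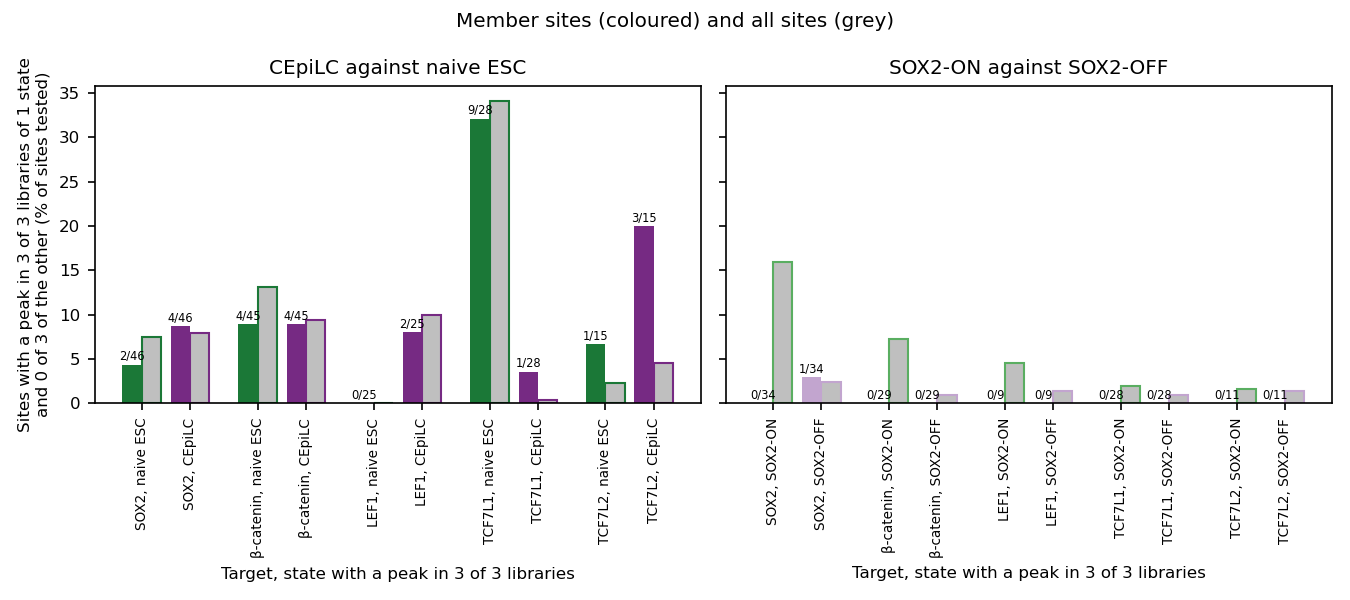
Percent of sites (y axis) found in all 3 libraries of one state and in 0 of 3 of the other, for the member sites (coloured) and all sites (grey), per target and direction; numbers give called of tested member sites. TCF7L1 sites bound in naive ESC only are common both at the members (9 of 28) and over the genome (34.1%), and SOX2-ON only calls are 0 at the members.

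Site by site, high against low SOX2 was compared by permuting libraries within the wild-type and within the TetON line. No member site passed a Benjamini-Hochberg adjusted p of 0.05, and neither did any of the genome's sites. At an unadjusted exact p below 0.05, SOX2 was higher at 1 and lower at 2 of 41 member sites, against 12.5% of all sites in either direction. β-catenin was higher at 2 and lower at 3 of 34 (14.5% of all sites), LEF1 lower at 1 of 12 (7.47%), TCF7L1 higher at 1 and lower at 1 of 28 (13.1%) and TCF7L2 lower at 1 of 12 (6.88%). The smallest p that 400 assignments allow is 0.005.

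The strongest peak of each locus was tested in the same way. For SOX2, 0 of 6 genes passed the adjusted threshold, and at an unadjusted exact p below 0.05 0 were higher and 0 lower at high SOX2 (14.7% and 5.91% of 17777 genes). For β-catenin 0 passed, with Spry4 higher and Etv4 lower at an unadjusted exact p below 0.05, 1 gene each (17.2% and 3.49% of 16777 genes). The lowest adjusted p over all genes was 0.0648 for SOX2 and 0.0750 for β-catenin. The median difference over the 6 genes was 0.03 for SOX2 and −0.15 for β-catenin on the log2(fold + 1) scale, against 0.10 and 0.58 over all genes.

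**Figure D5:**
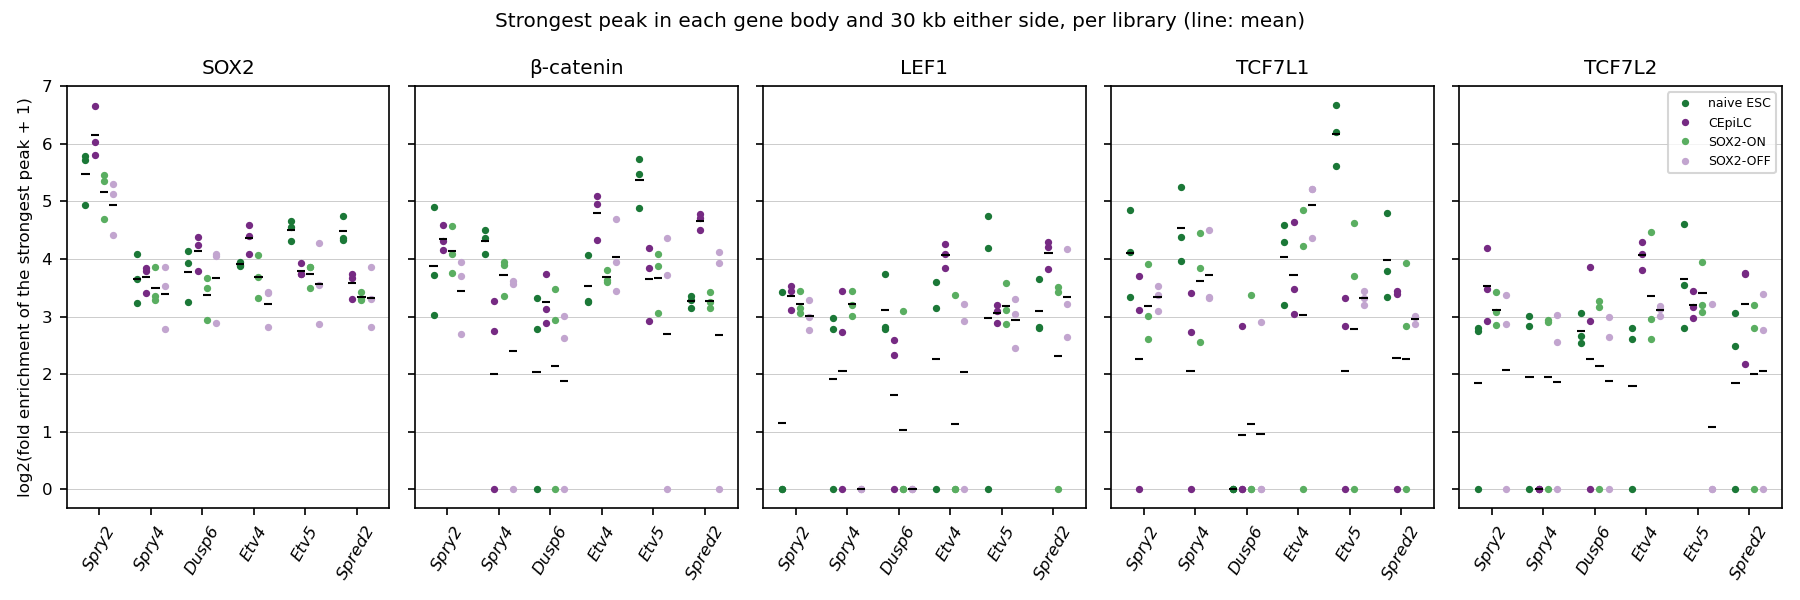
The log2(fold + 1) of the strongest peak of each locus (y axis) for each gene (x axis) and target (panel). Points are single libraries of the 4 states (colours), lines their means, and 0 means no kept peak. Etv5 stands out for β-catenin and TCF7L1 in naive ESC, and Spry2 has the highest SOX2 folds in all states.

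Other genes of the pathway were counted in the same way. Of 16 other negative feedback genes (such as Spry1, Spred1, Dusp1 and Il17rd) 15 could be tested for SOX2, and at an unadjusted exact p below 0.05 3 were higher and 2 lower at high SOX2, while for β-catenin 3 were higher and 0 lower. Among 15 ETS and immediate early genes SOX2 was higher at 1 and lower at 2, and β-catenin higher at 1 and lower at 0 of 14. Among 26 receptors and kinases of the cascade SOX2 was higher at 6 and lower at 2, and β-catenin higher at 5 and lower at 0. In each of these lists 0 genes passed the Benjamini-Hochberg adjusted threshold in the exact permutation test. The median differences for SOX2 were −0.04, 0.09 and 0.27 and for β-catenin 0.19, −0.29 and 0.60, in that order of lists. Over all genes SOX2 was higher at 14.7% and lower at 5.91%, and β-catenin higher at 17.2% and lower at 3.49%. The median differences over all genes were 0.10 and 0.58. How far the lists lay from these shares was not tested.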

How the data were processed

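ChIP-seq peak lists of 5 targets in 4 states, 3 replicates each, were grouped by their titles. The labels call TCF7L1 TCF3 and TCF7L2 TCF4. Per the study's methods the authors ran the nf-core ChIP-seq pipeline with Trim Galore and BWA on mm10 and called narrow peaks per library with MACS2 at a q-value under 0.05. The deposited fold is a ratio of signal to local background at the summit, and the authors' −log10 p-value and −log10 q-value stand beside it. The pairing with inputs is not given in the sources used here. A peak list without reads leaves the depth unknown, so no counting interval is given.

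The members and lists were chosen with earlier results of these data known. Each list was shortened to the 20000 peaks of highest fold, summits at most 200 bp apart were joined, and a site needed 1 target in at least 2 of 3 libraries of a state. Genes were those of GENCODE M21, and windows came from RefSeq GRCm38.p6. No peak ended past a GRCm38 chromosome (0 cases), and 0 pairs of lists were identical. A site was called between 2 states at 3 of 3 against 0 of 3 libraries. High against low SOX2 was tested on log2(fold + 1), with 0 for no peak, by a two-sided exact permutation test within the wild-type and within the TetON line (400 assignments, smallest p 0.005), with Benjamini-Hochberg adjustment over all sites or genes. The replicates are labelled biological. Sites named were, per gene, those in most lists for SOX2 and β-catenin, all called sites and those added as stated. The work used Python 3.11.15, numpy 2.4.6, pandas 2.3.3 and scipy 1.17.1, and the tests were checked on simulated data. Alternatives were list length, order by p-value, stricter thresholds, joining distance, flank, support, peak overlap, scale, replicate block and leaving out each replicate.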

Additional observations from a re-analysis of the deposited data

How the results depend on the processing

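Other list lengths, ranking by −log10 p, stricter thresholds, leaving out each replicate and the replicate block left 0 member sites and 0 member loci past the adjusted threshold, as did other joining distances for sites and other flanks and scales for loci. For sites, the stricter thresholds and leaving out replicates were chosen after seeing the data. The smallest exact p was 0.0556 without a replicate, which cannot pass. The number of pairs bound in CEpiLC only moved from 14 to 5 with all deposited peaks, to 8 with a flank of 10 kb and to 4 when absence from the complete lists was required, the last chosen after seeing the data, and ranged from 22 to 30 without 1 replicate, where 2 of 2 libraries sufficed. The number bound in naive ESC only moved from 16 to 7 with the 5000 strongest peaks, to 7 with the shortest list of each target and to 28 with a flank of 100 kb, and ranged from 20 to 27 without 1 replicate. SOX2-ON only moved from 0 to 2 with all deposited peaks, to 2 with the shortest list, to 1 with peaks ranked by −log10 p and to 4 with a flank of 100 kb (2 to 9 without 1 replicate). SOX2-OFF only moved from 1 to 0 with a flank of 10 kb or with absence from the complete lists, and to 2 with a flank of 100 kb (4 to 6 without 1 replicate). Shorter lists and other flanks hold fewer or more sites by construction, and other causes were not tested. Of 424 locus differences under the alternatives 365 kept their direction, 12 were 0.00, of which 11 with presence of a peak alone, and 47 had the other direction, none past the threshold. β-catenin kept its direction in 15 of 15 alternatives at Spry4 and in 14 of 15 at Etv4. These alternatives are not independent, because the strongest peak of a locus often stays the same when the list changes. With all deposited peaks, for example, the β-catenin differences stayed at 1.82 for Spry4 and −0.80 for Etv4.

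Replicate numbers did not pair the libraries: 6 of 90 same-numbered pairs had a correlation of deviations over 0.1 (range −0.148 to 0.224). With the replicate block, whose smallest p is 0.0312, 1 locus and 4 sites of the members had an unadjusted exact p below 0.05 and 0 passed after Benjamini-Hochberg adjustment. Lists of very different length, unknown depth and 3 libraries per state limit what can be seen.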
